A study of Mus musculus with 9 samples.

Results

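The genes described here were 10 members of the p53 pathway and of the Cdkn2 group of cell cycle inhibitors, out of 19435 genes in the deposited expression matrix: Trp53, Mdm2, Cdkn1a, Ccng1, Trp53inp1, Pmaip1, Bbc3, Bax, Cdkn2a and Cdkn2b. They were taken by gene symbol, and each symbol named 1 gene of the matrix. Polyadenylated RNA was sequenced from 4 primary mouse tumors of genotype Dicer1ko/D1693N and 5 normal mouse oviducts, of which oviducts 1 to 3 were Dicer1+/D1693N and oviducts 4 and 5 were Dicer1+/+. Tumor and oviduct libraries carry the same tissue label, oviduct, and no treatment was given. DICER1 is the RNase III enzyme that cuts microRNA precursors, and D1693N changes a residue of its RNase IIIb domain. The D1693N allele was therefore shared by the tumors and by 3 of the oviducts, while the ko allele was present in the tumors alone. How the ko allele was made, the strain and the age of the mice are not given in the sources used here. Nothing in the labels says that the libraries of a group came from separate mice, so p-values measure the spread between these libraries, which may be technical.

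The protein p53 is a transcription factor that is kept low by the ubiquitin ligase MDM2 and accumulates after DNA damage or oncogene stress. It then induces genes that stop the cell cycle, such as Cdkn1a, and genes that open the mitochondrial path to cell death, such as Pmaip1, Bbc3 and Bax. The Cdkn2a locus feeds into the same pathway: one of its products, p19Arf, binds MDM2, and the other, p16Ink4a, inhibits the kinases CDK4 and CDK6, as does the product of the neighbouring gene Cdkn2b.

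Trp53, Cdkn1a, Pmaip1, Bax and Cdkn2a rose in the tumors, and Cdkn2b, Mdm2, Bbc3 and Trp53inp1 did not pass the test. Pmaip1 and Cdkn2a differed most, with mean normalized counts 19.9 and 12.3 times those of the oviducts. A gene was called where limma gave an adjusted p under 0.05 and the log2 change reached 1 in either direction. By this rule 5 of the 10 members were higher in the tumors and 0 were lower, where 18.7% of all genes were called, 6.53% higher and 12.1% lower. Of the 10 members, 6 had every tumor above every oviduct, the 5 called genes and Ccng1, where 27.6% of all genes had groups that did not overlap and 10.8% had every tumor higher. The median change of the 10 members was 0.91 on the deposited log2 scale, against -0.05 for all genes.

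The libraries held 8732190 to 11267144 recovered reads in the tumors and 8504993 to 12526078 in the oviducts. Every member had at least 13 reads in every library. Dicer1 itself had normalized counts of 1282.9, 741.5, 1379.2 and 576.3 in tumors 1 to 4, against 1236.8, 1004.7, 1145.3, 903.9 and 1141.0 in oviducts 1 to 5, and gene counts do not tell its alleles apart. Oviduct ciliated cell markers were called lower in the tumors for 6 of 6 genes, with summed normalized counts of 19.98 to 544 in the tumors and 16162 to 25133 in the oviducts. Secretory and epithelial markers were called lower for 2 of 6 genes, with sums of 15498 to 24823 in the tumors and 93745 to 171773 in the oviducts, so both oviduct epithelial lists had sums that did not overlap between the groups. Proliferation markers were called higher for 10 of 10 genes (5109 to 8239 in the tumors, 863 to 1222 in the oviducts), macrophage markers for 5 of 7 (6215 to 48578 and 3643 to 5820) and endothelial markers for 5 of 6 (4728 to 9571 and 2007 to 3591). No marker was at 0 in all libraries of a group. In bulk RNA, fewer cells of a type and less RNA per cell cannot be told apart, and the part of these markers in the results below was not tested.

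**Figure D1:**
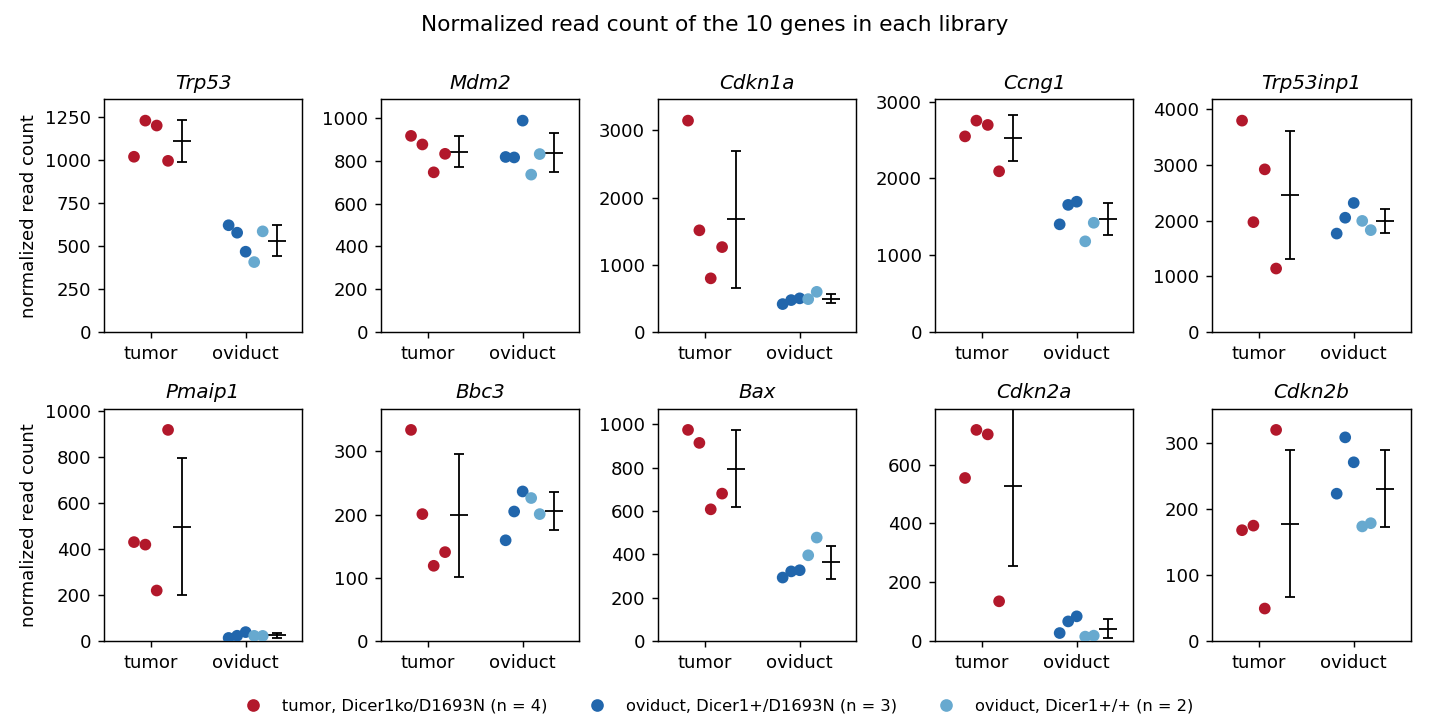
Normalized read count of each of the 10 genes (vertical axis, starting at 0) in the 4 tumors and the 5 oviducts, 1 point per library, with the mean and SD of each group as a bar. Every tumor lay above every oviduct for Trp53, Cdkn1a, Ccng1, Pmaip1, Bax and Cdkn2a, and the groups overlapped for Mdm2, Trp53inp1, Bbc3 and Cdkn2b.

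Trp53 (ENSMUSG00000059552.13, GRCm38 chr11:69580359-69591873, plus strand) codes for p53 itself. Its normalized counts were 1018.7, 1228.7, 1200.2 and 994.9 in tumors 1 to 4, against 620.6, 577.2, 466.7, 406.4 and 585.0 in oviducts 1 to 5. All tumors were above all oviducts, and the tumors lay within 1.24 times of each other. The means were 1111 ± 121 in the tumors (SD, n = 4) and 531 ± 90.5 in the oviducts (SD, n = 5). The change was 1.05 ± 0.15 on the log2 scale (SE, limma adjusted p = 0.000601), close to the minimum of 1, and the call was lost without tumor 2 (0.995) or without oviduct 4 (0.96), while the adjusted p stayed under 0.05 in both. The deposited values give RNA of the gene and not the amount, activity or sequence of the protein.

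Mdm2 (ENSMUSG00000020184.15, chr10:117688875-117710758, minus strand) codes for the main ubiquitin ligase of p53 and is also one of its target genes. Its normalized counts were 916.8, 876.7, 746.4 and 832.9 in tumors 1 to 4, against 818.2, 816.0, 988.1, 735.7 and 831.8 in oviducts 1 to 5. The range of the tumors lay inside that of the oviducts, with means of 843 ± 73.0 in the tumors (SD, n = 4) and 838 ± 92.1 in the oviducts (SD, n = 5). The log2 change was 0.01 with a 95% interval of -0.27 to 0.29 (limma adjusted p = 0.958), an interval that does not reach a 2-fold difference in either direction. Its relative Mdm4, which codes for an MDM2 partner that also restrains p53, averaged 1602 ± 382 in the tumors and 1938 ± 251 in the oviducts (adjusted p = 0.234).

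Cdkn1a (ENSMUSG00000023067.14, chr17:29090976-29100727, plus strand) codes for p21, the inhibitor of cyclin-dependent kinases through which p53 stops the cell cycle. Normalized counts of 3144.5, 1512.6, 798.2 and 1263.0 were found in tumors 1 to 4, against 415.2, 474.6, 500.5, 488.9 and 597.3 in oviducts 1 to 5. All tumors exceeded all oviducts, and tumor 1 was the highest and tumor 3 the lowest of the tumors, 3.94 times apart. The means were 1679.6 ± 1020.5 in the tumors (SD, n = 4) and 495 ± 65.8 in the oviducts (SD, n = 5), a log2 change of 1.55 ± 0.32 (SE, limma adjusted p = 0.00442). In the annotation, 273 exon bases of Cdkn1a overlap a gene on the opposite strand, AC167363.2. Whether the counting used strand is not given in the sources used here, so reads of the 2 genes may not be told apart there.

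Ccng1 (ENSMUSG00000020326.7, chr11:40748552-40755311, minus strand) codes for cyclin G1, a p53 target that acts on MDM2. It had normalized counts of 2547.3, 2752.6, 2696.5 and 2092.8 in tumors 1 to 4, against 1402.0, 1655.3, 1696.6, 1180.6 and 1422.4 in oviducts 1 to 5. The groups did not overlap, and the lowest tumor, tumor 4, was still above the highest oviduct. The log2 change was 0.77 ± 0.15 (SE, limma adjusted p = 0.00287), under the minimum of 1, so the gene passed the adjusted p alone and was not called. At an adjusted p under 0.05 alone, 6 of the 10 members were higher, where 12.6% of all genes were higher and 18.5% lower.

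Trp53inp1 (ENSMUSG00000028211.11, chr4:11156431-11174379, plus strand) codes for a nuclear stress protein that is induced by p53. It had normalized counts of 3797.1, 1973.6, 2921.6 and 1140.0 in tumors 1 to 4, against 1768.1, 2052.8, 2317.5, 1995.7 and 1829.9 in oviducts 1 to 5. Tumors 1 and 3 were above every oviduct, tumor 4 was below every oviduct and tumor 2 lay among them. The mean change was 0.17 on the log2 scale with a 95% interval of -0.48 to 0.82 (limma adjusted p = 0.698), and the tumors varied more, with a log2 SD of 0.75 in the tumors and 0.15 in the oviducts.

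Since p53 acts by binding a response element made of 2 units of 10 letters, the RefSeq promoter windows of the members (GRCm38.p6, 250 bases before to 50 bases after an annotated start) were searched on both strands for the consensus. An element was counted where 2 units with their core C and G stood at most 3 bases apart with at most 2 mismatches in all, and a single unit where it matched fully. Windows were found for 8 of the 10 members, not for Pmaip1 and Trp53inp1. Cdkn1a, Ccng1 and Bax each held 1 element, with 1, 1 and 2 mismatches, where 1.55% of 27025 genes held one. The element of Cdkn1a lies 51 to 32 bases before the start (chr17:29090928-29090947, plus strand), that of Ccng1 195 to 176 bases before it (chr11:40755462-40755481, minus strand) and that of Bax 201 to 181 bases before it (chr7:45467079-45467099, minus strand). They are shown with 20 bases on each side and with the units in capitals, to give the letters of each match.
Cdkn1a: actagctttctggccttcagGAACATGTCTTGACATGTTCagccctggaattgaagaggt
Ccng1: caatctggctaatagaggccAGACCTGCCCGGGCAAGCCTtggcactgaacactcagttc
Bax: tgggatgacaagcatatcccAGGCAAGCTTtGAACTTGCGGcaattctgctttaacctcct

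Fully matching units were held by Cdkn1a (2), Ccng1 (1), Bax (1), Mdm2 (1) and Trp53 (1), where 9.55% of genes held at least 1. Mdm2 and Trp53 held this single unit and no element. That of Mdm2 lies 186 to 177 bases before the start (chr10:117710935-117710944, minus strand) and that of Trp53 75 to 66 bases before it (chr11:69580284-69580293, plus strand). They are given in the same way, with 20 bases on each side and the unit in capitals.
Mdm2: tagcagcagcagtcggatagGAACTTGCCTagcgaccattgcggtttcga
Trp53: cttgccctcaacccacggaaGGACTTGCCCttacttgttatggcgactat
In the windows of Cdkn2a, Cdkn2b and Bbc3 and in a second window of Cdkn1a neither was found, which says only that these letters are not in these windows. A match describes letters and is not a measured binding site. Parts of the genes outside these windows were not searched, and whether a match goes with a change was not tested.

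Pmaip1 (ENSMUSG00000024521.8, chr18:66458533-66465565, plus strand) codes for NOXA, a BH3-only protein that neutralizes MCL1. It had normalized counts of 431.2, 420.2, 220.7 and 919.1 in tumors 1 to 4, against 14.5, 24.0, 39.8, 23.6 and 23.4 in oviducts 1 to 5. The lowest tumor, tumor 3, was well above the highest oviduct, oviduct 3. The means were 498 ± 297 in the tumors (SD, n = 4) and 25.1 ± 9.15 in the oviducts (SD, n = 5). The log2 change of 3.42 ± 0.36 (SE, limma adjusted p = 5.78e-05) was the largest of the 10 members with all libraries, whereas without tumor 4 it was 3.08, below that of Cdkn2a (3.59). Tumor 4, the highest for Pmaip1, also had the highest macrophage marker sum (48578), and tumor 3, the lowest, had the lowest among the tumors (6215), whereas tumors 1 and 2 had close Pmaip1 counts with sums of 17917 and 29503. The part of macrophage RNA in the Pmaip1 result was not tested.

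Bbc3 (ENSMUSG00000002083.13, chr7:16308393-16318205, plus strand) codes for PUMA, a BH3-only protein that binds all antiapoptotic BCL2 proteins. It had normalized counts of 334.1, 201.0, 119.3 and 140.9 in tumors 1 to 4, against 159.6, 205.1, 236.8, 226.4 and 201.0 in oviducts 1 to 5. Tumor 1 was above every oviduct and tumors 3 and 4 were below every oviduct. The log2 change was -0.13 with a 95% interval of -0.72 to 0.46 (limma adjusted p = 0.747).

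Bax (ENSMUSG00000003873.11, chr7:45461697-45466898, minus strand) codes for the effector that permeabilizes the mitochondrial outer membrane. It had normalized counts of 974.0, 914.1, 608.0 and 680.4 in tumors 1 to 4, against 293.6, 321.9, 327.4, 396.2 and 477.8 in oviducts 1 to 5. The groups did not overlap. The means were 794 ± 177 in the tumors (SD, n = 4) and 363 ± 74.3 in the oviducts (SD, n = 5), a log2 change of 1.08 ± 0.19 (SE, limma adjusted p = 0.00193). This too was close to the minimum of 1, and without tumor 1 the change was 0.97 and the gene was no longer called, with an adjusted p still under 0.05. In the annotation, Bax shares 192 exon bases with Gm45808 on the same strand, so reads there are uncertain.

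Cdkn2a (ENSMUSG00000044303.6, chr4:89274471-89294653, minus strand) codes for p16Ink4a and p19Arf from transcripts with separate first exons. The first exon of the p16Ink4a transcript has 207 bases (chr4:89281986-89282192), that of the p19Arf transcript has 320 bases (chr4:89294334-89294653), and both continue into the same second exon of 341 bases (chr4:89276645-89276985), so gene counts cannot tell the products apart. Normalized counts of 554.5, 717.7, 702.5 and 135.7 were found in tumors 1 to 4, against 27.9, 67.4, 84.6, 15.7 and 19.0 in oviducts 1 to 5. Tumor 4 stood far below the other tumors and yet above the highest oviduct. The means were 528 ± 271 in the tumors (SD, n = 4) and 42.9 ± 31.1 in the oviducts (SD, n = 5), and the log2 change was 3.07 ± 0.52 (SE, limma adjusted p = 0.0014). The oviducts also differed among themselves by 5.38 times, as much as the tumors with 5.29 times.

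Cdkn2b (ENSMUSG00000073802.5, chr4:89306299-89311039, minus strand), the next gene of the locus, codes for p15Ink4b, an inhibitor of CDK4 and CDK6 that is induced by TGF-beta. Its normalized counts were 168.0, 174.9, 49.5 and 319.7 in tumors 1 to 4, against 223.2, 308.4, 270.7, 173.7 and 178.6 in oviducts 1 to 5. Tumor 4, the lowest tumor for Cdkn2a, was the highest for Cdkn2b and above every oviduct, and tumor 3 was below every oviduct. The log2 change was -0.52 with a 95% interval of -1.40 to 0.36 (limma adjusted p = 0.349), so a difference of more than 2-fold is inside the interval. The value turned on single tumors, with -0.08 without tumor 3, -0.85 without tumor 4 and -1.08 without tumors 1 and 4, and the gene was called in none of these.

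**Figure D2:**
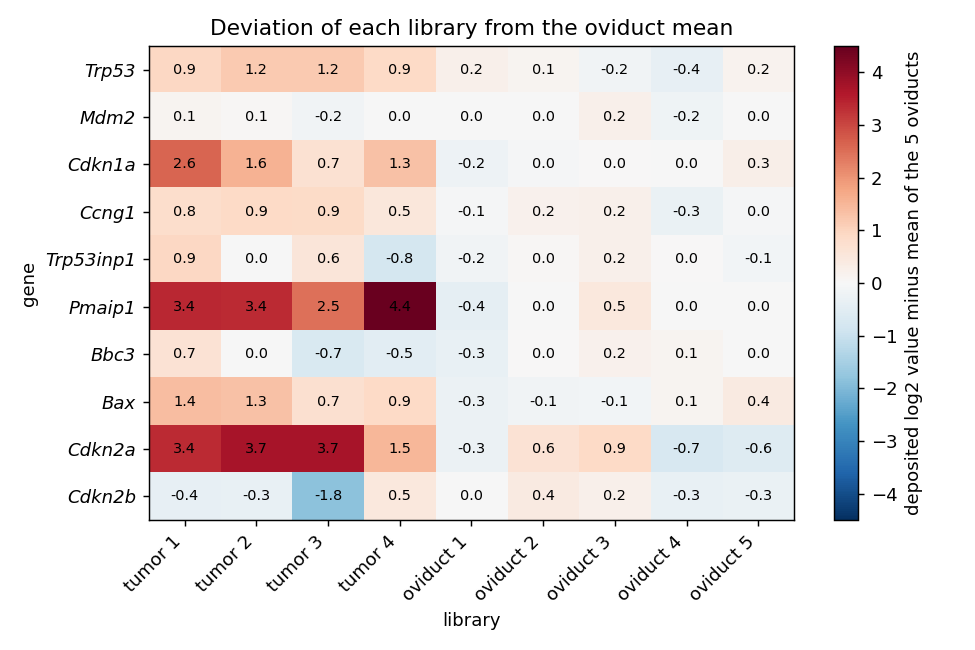
Deposited log2 value of each gene in each library (columns, the 4 tumors left of the 5 oviducts) minus the mean of the 5 oviducts, as colour and number. Tumor 4 stood 4.4 above the oviduct mean for Pmaip1 and 1.5 above it for Cdkn2a, while tumor 3 stood at -1.8 for Cdkn2b.

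Neighbouring members of the pathway changed by unequal amounts. For 3 pairs of genes the difference of the deposited log2 values within each library was compared between tumors and oviducts. Because deposited values understate differences at low counts, these are not the log2 of the count ratios given with them. The ratio of Cdkn2a to Cdkn2b normalized counts was 3.30, 4.10, 14.2 and 0.424 in tumors 1 to 4, against 0.125, 0.218, 0.312, 0.0905 and 0.106 in oviducts 1 to 5. Thus Cdkn2a exceeded Cdkn2b in tumors 1 to 3 and was below it in tumor 4 and in all oviducts. The log2 difference averaged 1.45 ± 1.88 in the tumors (SD, n = 4) and -2.14 ± 0.44 in the oviducts (SD, n = 5), a gap of 3.59.

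The ratio of Pmaip1 to Bbc3 was 1.29, 2.09, 1.85 and 6.52 in tumors 1 to 4, against 0.0909, 0.117, 0.168, 0.104 and 0.117 in oviducts 1 to 5. By these counts Pmaip1 was above Bbc3 in each tumor and below it in each oviduct. Counts in these ratios are not scaled to exon length, which is 2732 bases for Pmaip1 and 2124 for Bbc3. The ratio of Trp53 to Mdm2 was 1.11, 1.40, 1.61 and 1.19 in tumors 1 to 4, against 0.759, 0.707, 0.472, 0.552 and 0.703 in oviducts 1 to 5, with the same arrangement. The gaps of the log2 differences, tumor minus oviduct, were 3.55 for Pmaip1 minus Bbc3 and 1.03 for Trp53 minus Mdm2. With the log2 of the normalized count + 1 they were 4.25 for Cdkn2a minus Cdkn2b, 4.295 for Pmaip1 minus Bbc3 and 1.063 for Trp53 minus Mdm2. Each of the 3 gaps had a two-sided exact permutation p of 0.007937, also after adjustment over the 3 tests, which is the smallest p that splits of 9 libraries into 4 and 5 can give. The pairs were picked with the changes of their genes known, so the p-values are no independent evidence. They do not measure the size of the gaps either, being the same for all 3.

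**Figure D3:**
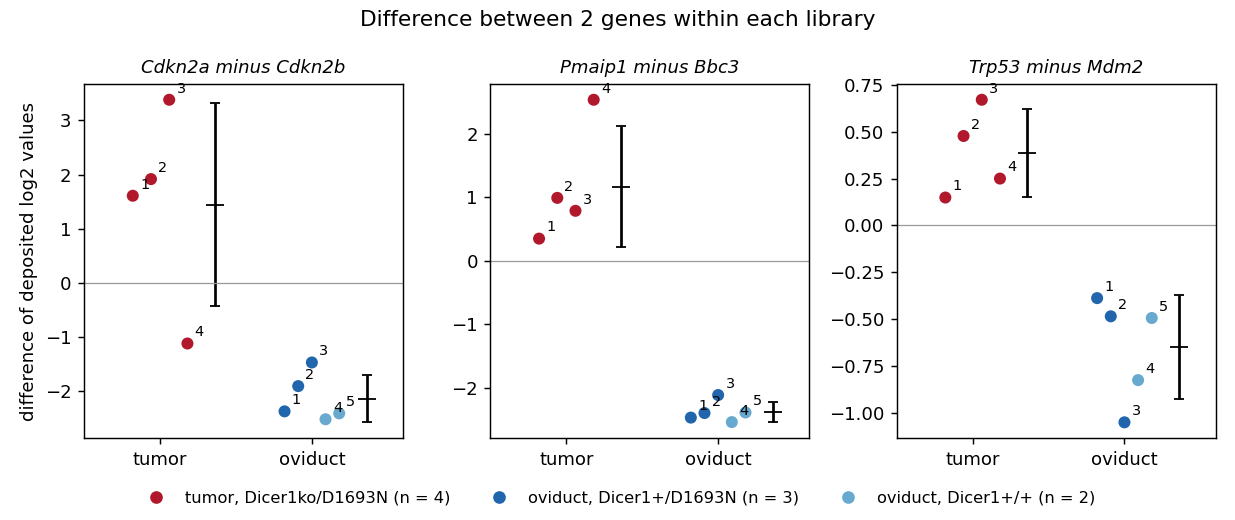
Difference of deposited log2 values between 2 genes within each library (vertical axis), with 1 numbered point per library and the mean and SD of each group as a bar. In all 3 panels every tumor lay above every oviduct, and for Cdkn2a minus Cdkn2b tumor 4 was the 1 tumor below 0.

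Levels between genes were set in order by normalized counts per kilobase of annotated exon. In the tumors Ccng1 was highest (718 per kilobase), followed by Bax (504), Cdkn1a (473), Cdkn2a (450), Trp53inp1 (380), Trp53 (275), Pmaip1 (182), Mdm2 (166), Cdkn2b (128) and Bbc3 (93.6). The ranges over the 4 tumors of each pair of neighbours in that order overlapped. In the oviducts Ccng1 was again highest (419 per kilobase), followed by Trp53inp1 (308), Bax (231), Cdkn2b (166), Mdm2 (165), Cdkn1a (139), Trp53 (131), Bbc3 (96.9), Cdkn2a (36.6) and Pmaip1 (9.17). There the 1 step without overlap between neighbours was from Bbc3 down to Cdkn2a. Cdkn2a and Pmaip1, last in the oviducts, thus stood in the fourth and seventh place in the tumors, by per-kilobase means.

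The tumors did not rank alike across the 10 genes. Tumor 1 was the highest tumor for 5 members (Cdkn1a, Mdm2, Bbc3, Bax and Trp53inp1), tumor 2 for 3 (Trp53, Cdkn2a and Ccng1) and tumor 4 for 2 (Cdkn2b and Pmaip1). Tumor 3 was the lowest for 6 members and tumor 4 for 4 (Trp53, Cdkn2a, Ccng1 and Trp53inp1). Over all genes, tumor 3 also had the most genes without a read, 3053, against 1369 to 1945 in the other tumors. For 7 of the 10 members the SD of the log2 values was larger in the tumors than in the oviducts, and Trp53, Mdm2 and Ccng1 were the exceptions. The tumors were less alike over all genes too, with correlations between libraries of 0.864 to 0.929, against 0.968 to 0.986 among the oviducts. The larger spread is thus not particular to the members. Other material also differed between tumors: red cell markers summed to 41122 in tumor 1, against 816 to 1314 in the other tumors, and fat cell markers to 32693 in tumor 4, against 29.3 to 88.4 in the others. Their part in the values of tumors 1 and 4 was not tested. Without tumors 1 and 4 the changes were 1.13 for Cdkn1a, 3.71 for Cdkn2a and 2.92 for Pmaip1.

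The oviducts of the 2 genotypes allowed the tumors to be set against each of them, and against oviducts that carry the D1693N allele themselves. These comparisons share the tumor libraries, so they are given side by side. Against the Dicer1+/D1693N oviducts, 4 of 10 members were called higher (Cdkn1a, Cdkn2a, Pmaip1 and Bax), where 16.6% of all genes were called, 5.17% higher and 11.4% lower. Against the Dicer1+/+ oviducts, 3 were called higher (Trp53, Cdkn2a and Pmaip1), where 13.8% of all genes were called, 4.07% higher and 9.74% lower. The change of Pmaip1 was 3.41 against Dicer1+/D1693N oviducts and 3.45 against Dicer1+/+ oviducts, and that of Cdkn2a 2.63 and 3.72, with limma adjusted p from 0.000569 to 0.00836. With limma-voom on recovered reads Cdkn2a was not called against either, at 2.79 (adjusted p = 0.0529) against Dicer1+/D1693N oviducts and 4.52 (adjusted p = 0.0726) against Dicer1+/+ oviducts. Trp53 changed by 1.15 against the Dicer1+/+ oviducts and stood at 0.98 against the Dicer1+/D1693N oviducts, where it was short of the minimum of 1 (adjusted p = 0.00448). It was called there too without tumor 1 or 4 or oviduct 1 or 2 (1.01 to 1.06), and was not called against the Dicer1+/+ oviducts without oviduct 4 (adjusted p = 0.0693). Cdkn1a changed by 1.64 against the Dicer1+/D1693N oviducts and stood at 1.42 against the 2 Dicer1+/+ oviducts, where its adjusted p was 0.0523. The first call was lost without oviduct 1 (adjusted p = 0.0587) or 2 (0.0509). Against the Dicer1+/+ oviducts the gene was called under quantile normalization (1.37, adjusted p = 0.0421), with array weights (1.42, adjusted p = 0.0097) and without tumor 1, 3 or 4. Bax changed by 1.26 against the Dicer1+/D1693N oviducts and stood at 0.81 against the Dicer1+/+ oviducts, under the minimum (adjusted p = 0.0357). With all libraries Ccng1 stayed under the minimum against both. It stood at 0.66 against the Dicer1+/D1693N oviducts (adjusted p = 0.0159) and at 0.94 against the Dicer1+/+ oviducts (adjusted p = 0.00723). These unequal calls do not show that the changes differ, and the oviduct genotypes were compared directly.

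Between the 3 Dicer1+/D1693N and the 2 Dicer1+/+ oviducts, 0 of 10 members were called, where 0.0206% of all genes (4 genes) were called by limma, 2 by limma-voom, and 534 genes had an unadjusted p under 0.05. Every member had an adjusted p of 1, and none had an unadjusted p under 0.05. With array weights by group the unadjusted p was 0.0063 for Bax, 0.013 for Cdkn2a and 0.0457 for Ccng1, with adjusted p of 0.165 or more. The largest difference was that of Cdkn2a, with 27.9 to 84.6 normalized counts in Dicer1+/D1693N oviducts and 15.7 to 19.0 in Dicer1+/+ oviducts. Its log2 difference of 1.09 had a 95% interval of -0.39 to 2.56 (unadjusted p = 0.13), wide enough to hold both 0 and a difference of more than 4-fold, and of 0.28 to 1.89 with array weights. The ranges of 3 members did not overlap between the genotypes, Cdkn2a, Cdkn2b and Bax, where 32% of all genes had ranges that did not. Some marker sums did not overlap between the genotypes either. Those of B and plasma cells were 2466 to 13474 in Dicer1+/D1693N oviducts and 285 to 1966 in Dicer1+/+ oviducts. For T and NK cells they were 86.0 to 307 and 49.5 to 72.6. Proliferation markers went the other way, with 863 to 1119 and 1183 to 1222. The sums of the other marker lists overlapped, and the part of any of them was not tested.

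**Figure D4:**
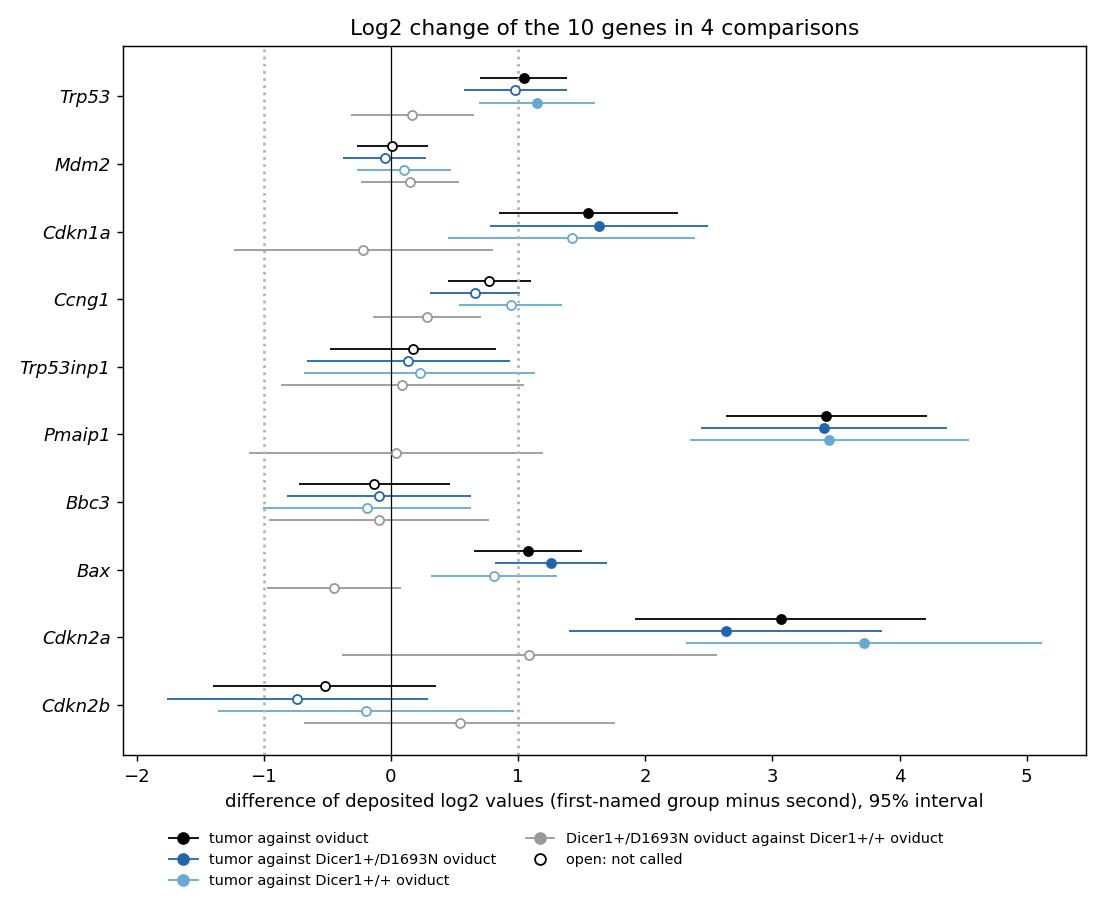
Difference of the deposited log2 values with its 95% interval (horizontal axis) for the 10 genes in 4 comparisons, with filled points for called genes and dotted lines at the minimum change of 1 in each direction. By limma on the deposited values, Pmaip1 and Cdkn2a were called in all 3 comparisons with the tumors, and none of the 10 genes was called between the oviduct genotypes.

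Other genes of the pathway were described from 6 lists, whose counts stand beside 6.53% of all genes called higher and 12.1% called lower. Of 17 measured regulators and relatives of p53, 1 rose and 1 fell, with a median change of -0.07 against -0.05 for all genes. With CPM or limma-voom 2 were called lower, the other being the checkpoint kinase Chek2 (-1.09 and -1.12), and without tumors 1 and 4 the other was Trp63 (-1.67). Chek1, the checkpoint kinase of DNA replication, rose to 162 ± 134 in the tumors, against 29.2 ± 9.97 in the oviducts (log2 change 1.69, limma adjusted p = 0.0103). Trp73, the p53 relative that is also needed for multiciliated cells, fell to 0.0 to 8.7 normalized counts in the tumors, against 449.6 to 560.2 in the oviducts (adjusted p = 1.58e-06). It moved with the ciliated cell markers described above, and their part in it was not tested.

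Of 27 other p53 target genes, 9 rose and 0 fell, with a median change of 0.52, where 6.53% of all genes were higher and 12.1% lower. Plk2, a polo-like kinase, averaged 1712 ± 1373 in the tumors and 318 ± 34.4 in the oviducts (log2 change 2.07, limma adjusted p = 0.00269). Apaf1, the scaffold of the apoptosome that activates caspase 9, averaged 796 ± 133 in the tumors and 197 ± 21.0 in the oviducts (log2 change 1.90, adjusted p = 1.22e-05), without overlap. Phlda3, an inhibitor of AKT, averaged 982 ± 75.7 in the tumors and 374 ± 64.8 in the oviducts (log2 change 1.36, adjusted p = 8.54e-05). Gdf15, a secreted stress cytokine, ran from 43.9 to 296.6 in the tumors and from 22.0 to 47.8 in the oviducts, so that the groups overlapped although the gene was called (log2 change 1.86, adjusted p = 0.0105). At an adjusted p under 0.05 alone, 13 of the 27 were higher and 4 lower. The count of 0 lower calls depended on the scaling: with CPM or limma-voom 8 were called higher and 3 lower (Sesn1, Dcxr and Rrm2b, named after their values were seen), and without tumors 1 and 4 the counts were 7 and 1, with Gdf15 no longer called (adjusted p = 0.0666).

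Of the 4 other inhibitors of cyclin-dependent kinases, 1 rose and 0 fell, beside 6.53% and 12.1% of all genes. Cdkn1c, the imprinted gene for p57, ran from 273.4 to 4027.2 in the tumors and from 245.6 to 521.1 in the oviducts, with overlap (log2 change 2.36 ± 0.66, limma adjusted p = 0.0207). Cdkn1b, which codes for p27, averaged 878 ± 531 in the tumors and 1134 ± 275 in the oviducts (adjusted p = 0.267). Cdkn2c and Cdkn2d, the INK4 genes outside the Cdkn2a locus, had changes of 0.78 (adjusted p = 0.128) and 0.37 (adjusted p = 0.508).

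Among 18 genes known to act on the Cdkn2a locus, a list that mixes its activators and repressors, 9 rose and 2 fell, with a median change of 1.13, beside 6.53% and 12.1% of all genes. Junb, an AP-1 subunit, averaged 4809 ± 2933 in the tumors and 554 ± 182 in the oviducts (log2 change 2.90). It is also 1 of the 8 immediate early markers, of which 8 were called higher, with sums of 12636 to 55417 in the tumors and 3421 to 6678 in the oviducts. The repressors in this list did not move one way: Ezh2, the histone methyltransferase of Polycomb, rose (463 ± 137 in the tumors, 99.8 ± 29.3 in the oviducts), as did Tbx3 and Id1, with log2 changes of 2.25 and 1.94. Cbx7, a Polycomb chromobox protein, fell by 1.58, and Tbx2 fell by 1.40. The groups overlapped for Tbx3, Cbx7 and Tbx2.

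Of 8 genes of the CDK4, CDK6 and retinoblastoma axis, on which p16Ink4a acts, 2 rose and 0 fell, beside 6.53% and 12.1% of all genes, with a median change of -0.01, or 0.48 without tumors 1 and 4. They were the D-type cyclins Ccnd2 (log2 change 1.54, limma adjusted p = 0.0252) and Ccnd3 (1.02, adjusted p = 0.00303), of which Ccnd3 stood under the minimum change with other scalings (0.90 to 0.94). In the BCL2 family, 2 of 15 genes rose and 4 fell, beside 6.53% and 12.1% of all genes, with a median change of 0.11, or 0.38 under quantile normalization and -0.04 under CPM. Bcl2l11, which codes for the BH3-only protein BIM, rose by 1.54, and Mcl1, which codes for the antiapoptotic partner of NOXA, rose by 1.11, to 4277 ± 844 in the tumors, against 1950.1 ± 136 in the oviducts. Mcl1 stood at 0.88 under quantile normalization and 0.98 under CPM and limma-voom, below the minimum, with adjusted p still under 0.05. Hrk (-2.89), Bok (-1.42), Bad (-1.11) and the antiapoptotic gene Bcl2l2 (-1.06) fell. Bcl2a1a, Bcl2a1b and Bcl2a1d are near-identical copies whose reads may be split by the counting, and none was called with the deposited values, while Bcl2a1b was called higher under quantile normalization (1.84, adjusted p = 0.0277).

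**Figure D5:**
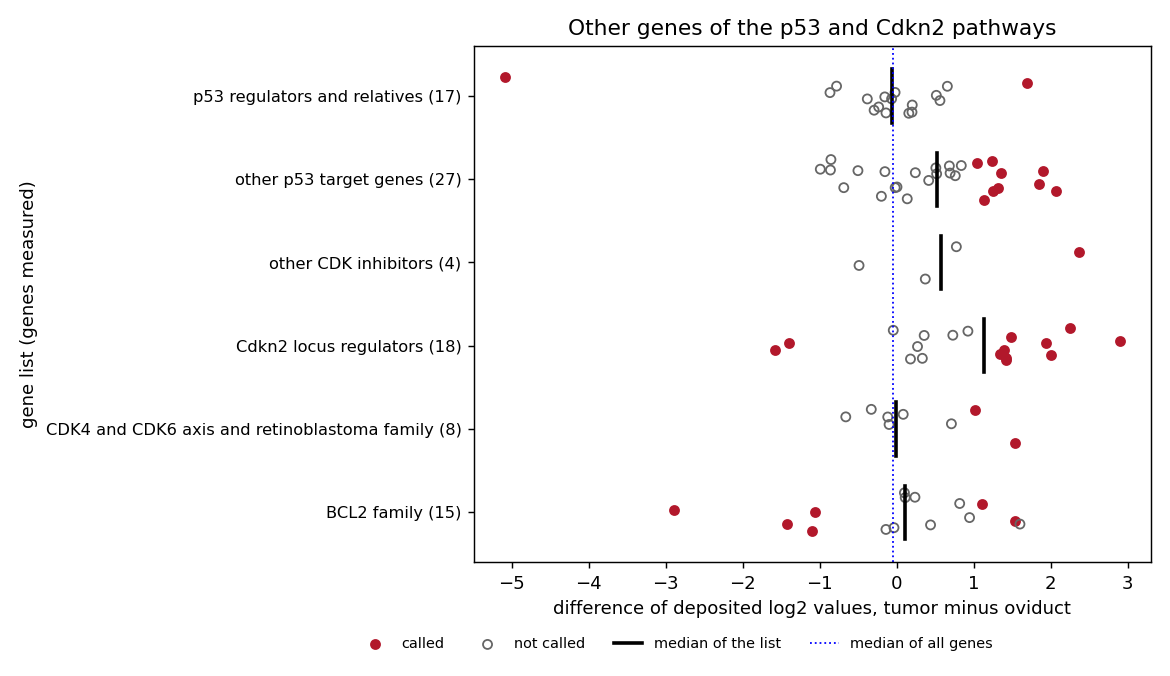
Difference of deposited log2 values, tumor minus oviduct (horizontal axis), for each measured gene of the 6 lists, filled where called, with the median of each list as a black line and the median of all genes as a dotted line. Trp73 lies farthest to the left at -5.09, and the list medians run from -0.07 to 1.13.

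Genes with the most similar course over the 9 libraries were found by the root mean square difference of centred log2 values, among the 9718 genes in the upper part of the table by mean value. For Trp53 they were Ergic2 (0.139), Wdr75 (0.139) and Kctd20 (0.159), and for Cdkn1a they were Nfil3 (0.178), Plvap (0.211) and Acer2 (0.227). The nearest genes of Cdkn2a were farther away, Cdh11 (0.562), Smoc2 (0.575) and Egr1 (0.626), as were those of Pmaip1, Lyz2 (0.517), Slc40a1 (0.553) and Pla2g7 (0.571). This distance is not scaled to the change of a gene, which was 3.07 for Cdkn2a and 3.42 for Pmaip1, against 1.05 for Trp53 and 1.55 for Cdkn1a. Distances are therefore not comparable between members. Lyz2 is 1 of the macrophage markers listed above and Egr1 1 of the immediate early markers.

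DICER1 makes microRNAs, so the annotated 3' UTRs of the members were searched for 7-base matches to bases 2 to 8 of the let-7, miR-17 and miR-34 families. Members of these families are known for growth control and, for miR-34, for induction by p53. Their mature RefSeq sequences (GRCm38.p6) are shown with bases 2 to 8 in capitals, to be read against the sites, and the microRNAs themselves were not measured here.
mmu-miR-17-5p: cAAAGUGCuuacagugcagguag
mmu-miR-34a-5p: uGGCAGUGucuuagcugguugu
mmu-let-7a-5p: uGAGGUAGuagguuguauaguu

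Sites for miR-17 (GCACTTT, held by 12.4% of 20821 genes) were found once each in Cdkn1a (chr17:29099820-29099844, plus strand), Ccng1 (chr11:40749392-40749416, minus strand) and Trp53inp1 (chr4:11174218-11174242, plus strand). A site for miR-34 (CACTGCC, held by 15.8% of genes) was found in Bax (chr7:45461839-45461863, minus strand), and none of the members held one for let-7 (CTACCTC, held by 10.2%). The sites are shown in capitals with 9 bases on each side, the stretches whose coordinates are given, from the GENCODE M21 transcripts, in the order Cdkn1a, Ccng1, Trp53inp1 and Bax.
Cdkn1a, miR-17: acctgaataGCACTTTggaaaaatg
Ccng1, miR-17: ttcatgaatGCACTTTtaaggtatt
Trp53inp1, miR-17: aacagcacaGCACTTTgccaaaaaa
Bax, miR-34: gaggcctccCACTGCCttggactgt
Of the 3 genes with a miR-17 site, Cdkn1a was called higher, Ccng1 passed the adjusted p alone and Trp53inp1 did not pass. Pmaip1 and Cdkn2a, with the largest changes, held no site of the 3 families in their longest annotated 3' UTR. Other families were not searched, a match is not a measured target, and whether sites go with changes was not tested.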

How the data were processed

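The deposited table gives 1 value per gene and library on a log2 scale. The authors' transformation is not given in the sources used here, nor are the annotation and strandedness of the counting. Per the labels' protocols, RNA was extracted with a miRNeasy kit, captured by its poly-A tail and reverse transcribed from random hexamers, and the submitters' processing notes name FastQC 0.11.5, STAR 2.5.3a, HTSeq (version not given) and the build GRCm38 (mm10). All columns share a floor of 3.427. The deposited log2 values followed a variance-stabilizing transformation, whose inverse returned whole reads after scaling by library in 100% of cases (tolerance 0.05 reads). Normalized counts in the text come from this step, and changes are differences of the deposited values, which understate the change of genes with few reads. There were no molecular identifiers, so duplicates of a molecule could not be recognized and the counts of reads may include them.

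Tumors were compared with oviducts by limma 3.58.1 in R 4.3.3 (two-sided moderated test, trend in the prior variance) on all 19435 genes with Benjamini-Hochberg adjustment, in a 2-group model, and by oviduct genotype in a 3-group model that shares 1 spread. The procedure was also run on simulated counts with known changes, drawn with 1 spread per gene for both groups. Those counts do not cover the larger spread of the tumors. Pairs of genes were compared by exact permutation tests over libraries. Libraries were not paired by replicate number, since nothing in the labels says that equal numbers mark shared animals. Alternatives were quantile normalization, CPM, limma-voom, no trend, array weights, a filter on the mean count (at least 10), the adjusted p alone, a replicate block, each library left out, and, chosen after seeing the data, tumors 1 and 4 left out and the list counts recomputed under the scalings. Positions come from GENCODE M21.

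The members, lists, pairs and tests were chosen with earlier results of these data known. All 10 members are named, with, from each list, at most 4 called genes of largest change per direction, a few further genes without regard to a call (Mdm4, Cdkn1b, Cdkn1c, Cdkn2c, Cdkn2d and Dicer1) and the 3 genes closest in course to Trp53, Cdkn1a, Cdkn2a and Pmaip1. Listed genes without a value (Cop1, Tigar and Ptprv) were not analysed here. Markers of fat cells, red cells, oocyte and granulosa, T and NK cells, and B and plasma cells were also summed, and 0 of them were called; of smooth muscle markers 2 of 6 were called lower.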

Additional observations from a re-analysis of the deposited data

Results flagged for a closer look

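Cdkn2a in tumor 4, with 135.7 normalized counts against 554.5, 717.7 and 702.5 in tumors 1 to 3, stood apart from the other tumors. On the log2 scale its gap to the nearest tumor was 0.839 of the whole range of the 4 tumors, above Dixon's 95% critical value for 4 samples. Chance gives such a gap in about 1 of 20 groups, and 20 groups were looked at here, the 10 members in tumors and in oviducts. Without tumor 4 the change of Cdkn2a was the largest of the values with 1 library left out, 3.59, and the gene was called with or without it. The same tumor had the highest counts of Pmaip1 (919.1) and Cdkn2b (319.7).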

How the results depend on the processing

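Pmaip1, Cdkn1a and Cdkn2a were called in tumors against oviducts under all settings run. Trp53 and Bax lost the minimum change, not the adjusted p, under CPM (0.94 and 0.98) and limma-voom (0.94 and 0.99). That left 3 members called under each, where 4397 (CPM) and 4276 (limma-voom) of 19435 genes were called. These settings moved the median of all genes to -0.20 and -0.22, and relative to it Trp53 stood at 1.14 and 1.17 and Bax at 1.19 and 1.21. Under quantile normalization the median was 0.08, and relative to it Trp53 stood at 0.94, under the minimum, and Bax at 1.005. With 1 library left out, 4 to 5 members and 3250 to 4170 genes were called (3625 with all). The adjusted p alone gave 6051 genes and 6 members against all oviducts. Against Dicer1+/+ oviducts it gave 3211 genes and 5 members. The share of called genes that were higher was 35.0%, and 46.6% under quantile normalization and 23.9% under limma-voom. A replicate block called 3230 genes and 5 members. Deviations from the group means correlated at -0.089 to 0.117 between a tumor and the oviduct of equal number, and at -0.146 to 0.139 for unequal numbers. This cannot decide whether equal numbers share an animal or a batch, since sharing need not leave a mark on these correlations.

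Against Dicer1+/+ oviducts, with 1 library left out, 1123 genes (without oviduct 5; 1402 without oviduct 4) to 3570 genes were called (2683 with all), and 2 members (without oviduct 4) to 5 members (without tumor 4). Between oviduct genotypes 4 genes were called, against 0 under CPM, 2 under limma-voom, 58 with array weights, 0 without tumors 1 and 4, and 0 to 4 with 1 library left out, and 0 members throughout. Mdm2, Bbc3 and Trp53inp1, none of them called, had values of either sign. Mdm2 was -0.0342 under quantile normalization, -0.125 under CPM, -0.123 under limma-voom, -0.0431 without tumors 1 and 4 and -0.0330 (without oviduct 4) to 0.0708 with 1 library left out, below 0 also without tumor 1 or 2. Bbc3 was 0.0025 under quantile normalization and -0.394 to 0.0537 (without tumor 3) with 1 library left out, and Trp53inp1 -0.0806 (without tumor 1) to 0.492. The causes were not tested. With 1 library left out the gaps were 2.94 to 4.44 for Cdkn2a minus Cdkn2b, 3.10 to 3.83 for Pmaip1 minus Bbc3 and 0.934 to 1.11 for Trp53 minus Mdm2, with the smallest p that such designs can give (0.0179 or 0.0286).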
